A study of Mus musculus with 8 samples.

Results

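The 4 genes described here, Aldoc, Aldh1l1, Atp1b2 and Kcnj10, encode metabolic enzymes and ion-handling membrane proteins that mark astrocytes. They were taken by symbol from the authors' deposited table of 2372 genes after its rows had been matched to GENCODE M21 by chromosome, start, end and strand. All 4 matched exactly. They were chosen by the authors' fold changes and p-values, which placed them lower in the knockout, so those values are given as a description and support nothing further. The table comes from RNA sequencing of the medial prefrontal cortex (mPFC) of 8 naive adult male mice on a C57Bl/6J background, with 1 library per mouse. In the 4 CaKO mice (CamK2A-Cre;Gpr158 flox/flox), the CamK2A promoter drives Cre recombinase, which is used to delete the floxed orphan receptor gene Gpr158 in forebrain excitatory neurons. The 4 control mice were Gpr158 flox/flox littermates with no Cre, so both groups carry the floxed allele. The series asks which transcripts accompany a loss of glutamate vesicles after this deletion. Cre is directed to neurons and not to astrocytes, and the tissue was sequenced whole, so fewer astrocytes and less RNA per astrocyte cannot be told apart.

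The table gives a value for each CaKO library and, for the comparison, the authors' log2 fold change (CaKO over control), p and adjusted p. Values of the single control libraries were not analysed. Each library value is a normalised count, a read count divided by 1 factor per library, with no division by gene length. Only genes with an unadjusted p below 0.05 are listed, so a gene said to have no value had a higher p or did not enter the authors' adjustment over 12938 genes. Here "fell" and "rose" are used of genes with an adjusted p below 0.05, and "lower" and "higher" of genes with an unadjusted p below 0.05. Reads over the listed genes ranged from 2832931 to 3183638 per CaKO library, and the total depth of the libraries is unknown. No listed row overlapped Gpr158 (0 rows), so the deleted gene itself had no value: its p was not below 0.05, or it did not enter the adjustment. The list thus does not show the deletion, and the genotype labels could not be checked against the deleted gene. The neuronal kinase gene Camk2a had 46287 ± 5735 normalised counts in CaKO (SD, n = 4) and the myelin gene Mbp 11273 ± 1473, so transcripts of cortical neurons and myelin were abundant in the CaKO libraries.

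Astrocytes surround synapses and blood vessels, take up glucose, and pass metabolites to neurons. They also clear the potassium that neurons release when they fire, through inwardly rectifying potassium channels and the sodium pump, and they remove glutamate and convert it to glutamine. Aldoc and Aldh1l1 are enzymes of this metabolic side, and Atp1b2 and Kcnj10 belong to the ion-buffering side. All 4 are in wide use as astrocyte markers, although Kcnj10 is also made by oligodendrocytes.

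The 4 transcripts differed widely in level. Per kilobase of exon, Aldoc averaged 1889 ± 181 normalised counts in CaKO, Atp1b2 961 ± 164, Kcnj10 408 ± 34.0 and Aldh1l1 128 ± 16.1 (SD, n = 4 each). No 2 neighbours in this order overlapped: the lowest Aldoc library stood at 1661 and the highest Atp1b2 library at 1126, the lowest Atp1b2 library at 734 and the highest Kcnj10 library at 430, and the lowest Kcnj10 library at 358 and the highest Aldh1l1 library at 146. Aldoc was thus 14.8 times as abundant per kilobase as Aldh1l1. Among the 2047 listed genes in the adjustment, the mean normalised count of Aldoc was above that of 96.8% of genes, Atp1b2 above 94.0%, Kcnj10 above 86.1% and Aldh1l1 above 55.1%.

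Aldoc encodes aldolase C, the brain form of the glycolytic enzyme that splits fructose bisphosphate. It lies on chromosome 11 (78322968 to 78327781, plus strand, GRCm38; 3263 exonic bases, protein-coding; ENSMUSG00000017390.15). The CaKO libraries of replicates 1 to 4 held 5418, 6797, 6008 and 6429 normalised counts. Replicate 1 was the lowest and replicate 2 the highest, 1.25 times as high. The mean was 6163 ± 592 (SD, n = 4), a coefficient of variation of 9.61%, against 1.28% from counting error alone. For the comparison, the authors' deposited table gives a log2 fold change of -0.34, which is 79.1% of control, and an adjusted p of 0.0292. The interval implied by the deposited p, taken as a Wald test, ran from -0.53 to -0.14 (95%). Of the 12938 genes in the adjustment, 1.97% fell at this threshold, 1.27% rose and 3.24% changed in either direction. Since the 4 genes were chosen by this contrast, nothing is read from their count of 3 that fell.

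Aldh1l1 encodes 10-formyltetrahydrofolate dehydrogenase, which removes formyl groups from the folate pool and is a common label of astrocytes. Its annotated span on chromosome 6 runs from 90486427 to 90600203 on the plus strand (4516 exonic bases, protein-coding; ENSMUSG00000030088.15). It had 508, 621, 527 and 658 normalised counts in CaKO replicates 1 to 4. Replicates 1 and 3 lay close together at the low end, and replicates 2 and 4 at the high end. The mean was 578 ± 72.5 (SD, n = 4), and as the least abundant of the 4 genes it carried the largest counting error, a coefficient of variation of 4.18% out of a measured 12.5%. The authors' deposited table puts it at a log2 fold change of -0.36, or 78.1% of control, with an adjusted p of 0.0630. Aldh1l1 is therefore lower by the unadjusted p of the authors' deposited table (0.00229), as are 8.68% of the 12938 genes, but it did not pass the adjusted threshold. An antisense gene, Gm15756, shares 499 of its exonic bases on the opposite strand and a non-coding gene, Gm45901, 105 on the same strand. Neither has a value, and no source used here says whether reads were assigned by strand.

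Atp1b2 encodes the beta-2 subunit of the sodium pump, known as AMOG, which helps the catalytic alpha subunit reach the membrane. It lies on chromosome 11 (69599736 to 69605942, minus strand; 4085 exonic bases, protein-coding; ENSMUSG00000041329.13). Its values were 4004, 4598, 2999 and 4109 normalised counts in CaKO replicates 1 to 4. Replicate 3 stood well below the other libraries, at 76.4% of the mean of all, and replicate 2 was 1.53 times as high as replicate 3. The mean of 3928 ± 671 (SD, n = 4) had a coefficient of variation of 17.1%, the widest of the 4 genes, against 1.60% from counting error. It fell to 71.0% of control by the authors' deposited table, a log2 fold change of -0.49 with an implied interval from -0.73 to -0.26 and an adjusted p of 0.00476.

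Kcnj10 encodes Kir4.1, the main inward rectifier potassium channel of astrocytes, which sets their resting potential and takes up potassium. It lies on chromosome 1 (172341210 to 172374085, plus strand; 5407 exonic bases, protein-coding; ENSMUSG00000044708.5). The CaKO replicates 1 to 4 held 2270, 1935, 2300 and 2327 normalised counts. Replicate 2 was the low one here, at 87.6% of the mean, and the other libraries lay within a narrow range. The mean was 2208 ± 184 (SD, n = 4), with a coefficient of variation of 8.32% against 2.14% from counting error. The authors' deposited table has it at 71.2% of control, a log2 fold change of -0.49 with an implied interval from -0.68 to -0.30 and an adjusted p of 0.000250. By p, Kcnj10 ranked 22 among the 1123 lower genes, Atp1b2 59, Aldoc 183 and Aldh1l1 287.

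**Figure D1:**
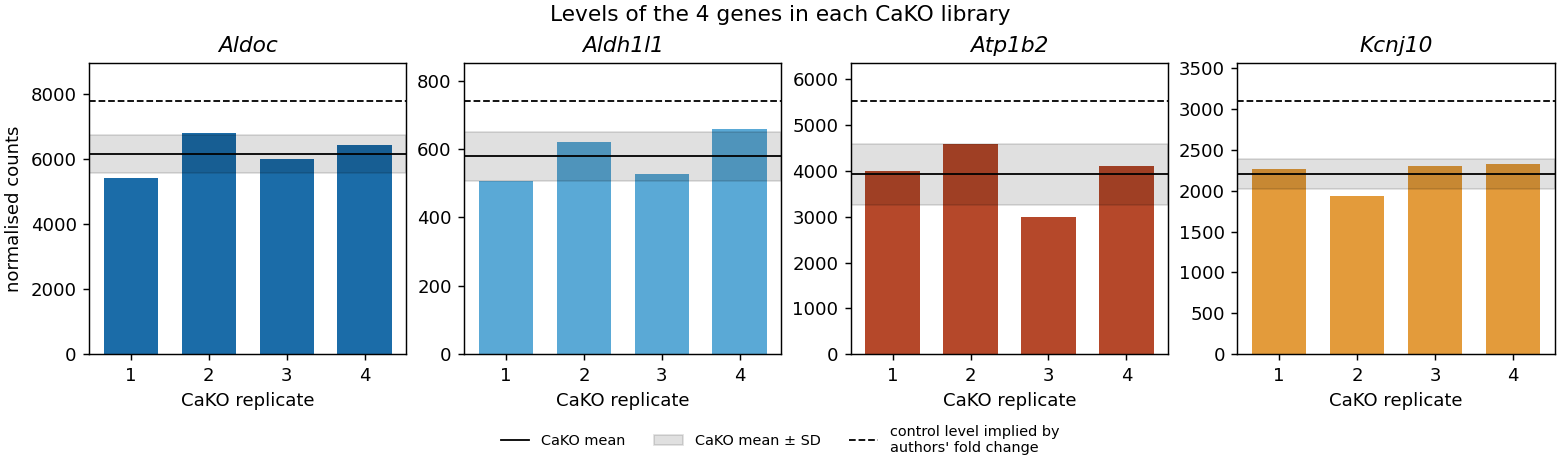
Normalised counts (vertical axis, from 0) of Aldoc, Aldh1l1, Atp1b2 and Kcnj10 in CaKO replicates 1 to 4 (bars), with the CaKO mean (line) and SD (band); the dashed line is the control level implied by the CaKO mean and the authors' fold change, not a measured value. The lowest library is replicate 1 for Aldoc (5418) and Aldh1l1 (508), replicate 3 for Atp1b2 (2999) and replicate 2 for Kcnj10 (1935).

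The 4 fold changes of the authors' deposited table were of similar size. Those of the ion-buffering genes, -0.49 each, were larger than those of the metabolic genes, -0.34 for Aldoc and -0.36 for Aldh1l1, but the implied intervals of all 4 overlap and the differences between genes were not tested. The median over the 4 was -0.42, beside -0.37 over the 1123 lower genes and -0.53 over the 255 genes that fell. Dividing each CaKO mean by its fold change gives an implied control level of 7793 normalised counts for Aldoc, 740 for Aldh1l1, 5528 for Atp1b2 and 3100 for Kcnj10. Every CaKO library lay below the implied level of its gene, from -0.88 for Atp1b2 in replicate 3 to -0.17 for Aldh1l1 in replicate 4 on the log2 scale. Whether the groups overlap cannot be seen from these values, because the spread of the controls was not analysed here.

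**Figure D2:**
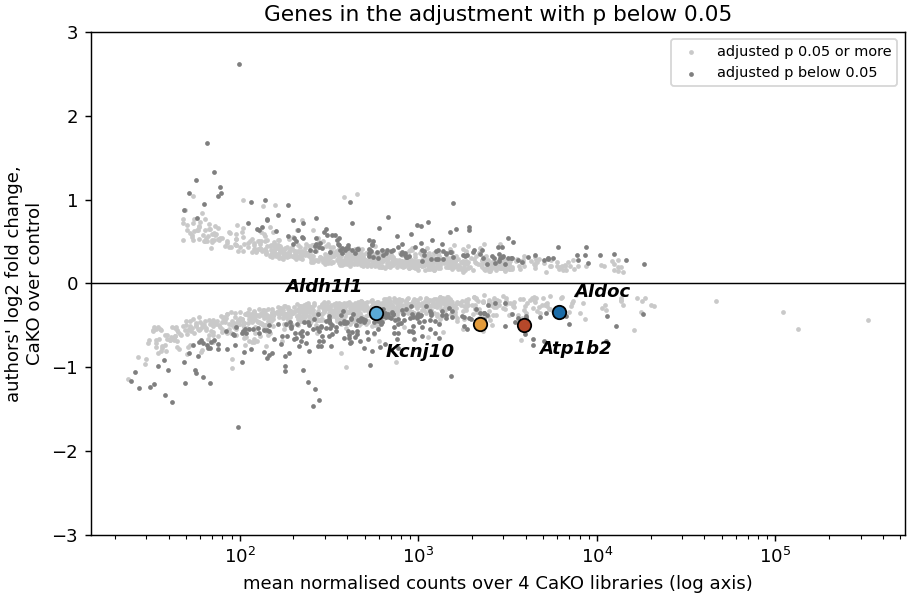
Mean normalised counts over the 4 CaKO libraries (horizontal, log axis) against the authors' log2 fold change of CaKO over control (vertical) for the 2047 genes in the adjustment with p below 0.05, dark where the adjusted p is below 0.05. The 4 genes (coloured) lie at fold changes from -0.49 to -0.34, with Aldoc the most abundant of them.

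How far the values rest on 1 mouse differed between the genes. Recomputed without each CaKO library in turn, by an approximation that keeps the implied control level and widens the standard error 1.08-fold, the log2 fold change of Kcnj10 stayed between -0.52 and -0.43. Its p stayed within that of the called genes (at most 0.00162) each time. Atp1b2 moved to -0.38 without replicate 3, and its call ended. The call of Aldoc ended without replicate 1, at -0.28, and without replicate 3, at -0.33. The wider standard error alone would have put Aldoc at 0.00159, next to the limit. A gene with a higher deposited p than that of Aldoc (0.000649) lies nearer the limit or past it by this widening alone. An ended call of such a gene need not rest on the library left out. Aldh1l1 ranged from -0.42 without replicate 4, where it came within the limit, to -0.30 without replicate 1. The p of all 4 genes stayed below 0.05 throughout.

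Across the CaKO mice the 4 transcripts did not share 1 order. Aldoc and Aldh1l1 were both lowest in replicate 1 and both had replicates 2 and 4 as their highest libraries, and the ratio of Aldoc to Aldh1l1 varied only 1.17-fold over the 4 libraries. The root mean square difference of their log2 values, each centred on its own mean, was 0.0812. In that measure, set against 990 other listed genes with a mean of at least 500 normalised counts, Aldh1l1 ranked 55 in closeness to Aldoc. Atp1b2 and Kcnj10 were the least alike pair, at a difference of 0.306, and their ratio varied 1.82-fold. Atp1b2 was highest in replicate 2, where Kcnj10 was lowest. The remaining pairs lay between 0.188 and 0.217. These values come from 4 libraries and are a description only.

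The genes whose library pattern was closest to each of the 4, by the same measure over the 4 CaKO libraries, went both ways between genotypes: of 11 reported, 5 were lower or fell and 6 were higher or rose. Only genes with an unadjusted p below 0.05 were compared, so each had to be lower or higher. Of the 2047 listed genes in the adjustment, 1123 were lower and 924 higher. Nothing is read from the directions of the 11, or of those closest to any 1 gene. Near Kcnj10 were Ric8a (difference 0.0227) and Prkce (0.0304). The authors' deposited table has both higher, at log2 fold changes of 0.27 and 0.21 (adjusted p = 0.113 and 0.106). Closest to Aldoc were Timm29 (0.0352), AI464131 (0.0392) and Samm50 (0.0422), which the authors' deposited table lists at log2 fold changes of 0.24, -0.24 and 0.24 (adjusted p = 0.181, 0.212 and 0.177). Bcor, Ndufs7 and Igfbp6 were closest to Aldh1l1, at 0.0258, 0.0276 and 0.0301. Of these Igfbp6, an insulin-like growth factor binding protein, rose by 0.48 per the authors' deposited table (adjusted p = 0.0350). Its call ended without replicate 2 (0.42) or 4 (0.42). Its deposited p (0.000852) was above that of Aldoc, so the wider standard error has a part in this. Ndufs7, a subunit of respiratory complex I, was higher at 0.34 (adjusted p = 0.0705), and Bcor, a transcriptional corepressor, lower at -0.31 (adjusted p = 0.252), both per the authors' deposited table. All 3 genes closest to Atp1b2 were lower or fell. They were Ppp2r5a (0.0555), a regulatory subunit of protein phosphatase 2A, Cdk2ap1 (0.0665), and Camk2n2 (0.0683), an inhibitor of CaM kinase II. Per the authors' deposited table, Ppp2r5a stood at a log2 fold change of -0.22 (adjusted p = 0.301) and Cdk2ap1 at -0.45 (adjusted p = 0.106). Camk2n2 fell by 0.59 per the authors' deposited table (adjusted p = 0.0126), with a call that ended without replicate 3 at -0.45.

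**Figure D3:**
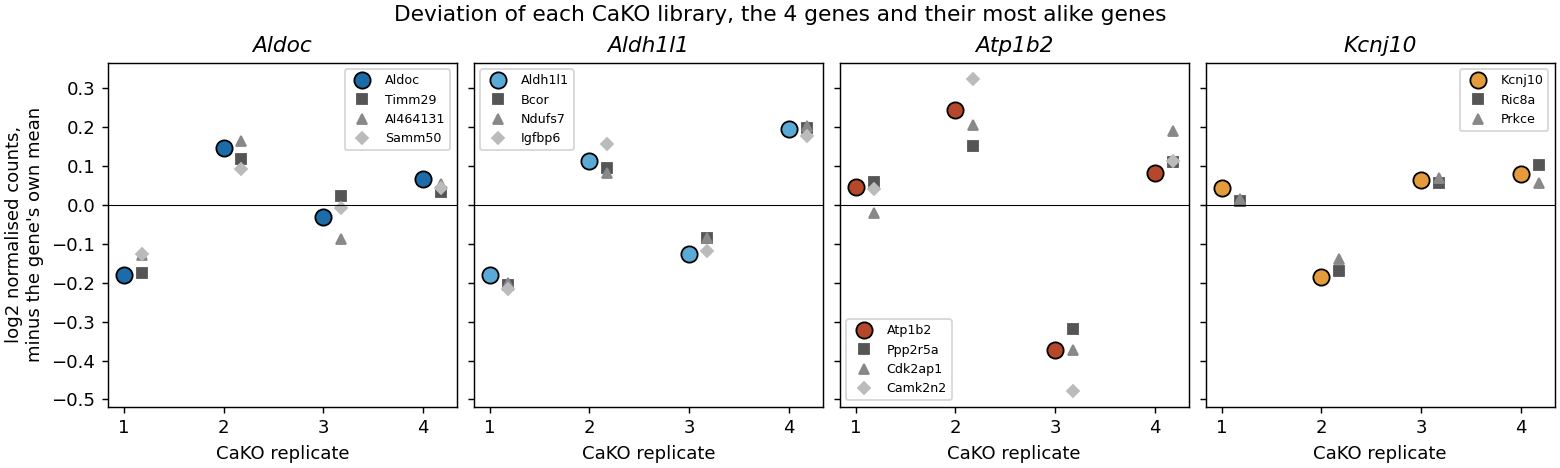
Log2 normalised counts minus each gene's own mean (vertical) in CaKO replicates 1 to 4 (horizontal), for each of the 4 genes (large circles) and its most alike genes (small grey symbols, shifted right). Atp1b2 and its 3 alike genes dip in replicate 3, and Kcnj10 and its alike genes dip in replicate 2.

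Among 16 neuronal markers 13 had no value. The 3 with a value, Camk2a, Nrgn and Rbfox3, were each lowest in CaKO replicate 3, the library in which Atp1b2 was lowest. They summed to 48938 normalised counts in CaKO replicate 3, against 64360, 65229 and 68623 in replicates 1, 2 and 4, and Camk2a made up most of this sum. Eno2, the neuronal form of enolase, was not low in replicate 3 (12934, against 10669, 12818 and 13475 in replicates 1, 2 and 4). Eno2 is not among the 16 and rose between genotypes, by 0.36 per the authors' deposited table (log2, adjusted p = 0.00769). Of the 16 neuronal markers, 3 were lower, 0 were higher and 1 fell. Over all 12938 genes, 8.68% were lower, 7.14% higher and 1.97% fell, so nothing is read from these small counts. The marker that fell was 1 of the 3 with a value. It was Nrgn, at a log2 fold change of -0.50 per the authors' deposited table (adjusted p = 0.0238), a call that ended without replicate 3 at -0.37. The part of these neuronal transcripts in the Atp1b2 value was not tested.

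Promoters of 3 of the 4 genes (all but Atp1b2) matched in the RefSeq table (GRCm38.p6), each 250 bases before and 50 bases from the annotated start on. They are shown because these genes were listed together as lower, with capitals marking GC boxes (GGGCGG) and CCAAT boxes (CCAAT) found on either strand. Kcnj10 is chr1:172340960-172341259, Aldh1l1 is chr6:90550543-90550842 and Aldoc is chr11:78322823-78323122, all on the plus strand. The RefSeq start used for Aldh1l1, base 90550793, lies well inside its GENCODE span, which begins at base 90486427.
Kcnj10: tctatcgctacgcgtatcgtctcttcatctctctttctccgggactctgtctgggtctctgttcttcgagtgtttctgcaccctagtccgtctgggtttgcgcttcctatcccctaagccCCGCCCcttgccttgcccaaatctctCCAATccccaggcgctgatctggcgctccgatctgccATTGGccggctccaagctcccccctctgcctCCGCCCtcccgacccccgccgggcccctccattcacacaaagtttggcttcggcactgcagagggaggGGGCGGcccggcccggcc
Aldh1l1: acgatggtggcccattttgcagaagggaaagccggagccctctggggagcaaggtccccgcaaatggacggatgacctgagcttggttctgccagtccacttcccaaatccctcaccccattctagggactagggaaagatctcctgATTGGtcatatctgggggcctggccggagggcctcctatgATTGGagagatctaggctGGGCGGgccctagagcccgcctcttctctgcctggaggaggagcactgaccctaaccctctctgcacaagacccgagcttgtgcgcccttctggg
Aldoc: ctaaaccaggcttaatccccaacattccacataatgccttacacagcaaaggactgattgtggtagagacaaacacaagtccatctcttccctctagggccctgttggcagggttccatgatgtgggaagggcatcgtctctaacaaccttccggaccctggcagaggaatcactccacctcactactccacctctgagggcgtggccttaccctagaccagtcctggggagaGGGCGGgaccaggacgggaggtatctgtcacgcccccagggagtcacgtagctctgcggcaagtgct
Each of the 3 windows holds a GC box, 3 in Kcnj10 and 1 each in Aldh1l1 and Aldoc, beside 35.7% of the 32851 promoters in the RefSeq table with at least 1. CCAAT boxes number 2 in Kcnj10, 2 in Aldh1l1 and 0 in Aldoc, and 37.4% of all promoters hold one. The letters TTGGC, the core of the nuclear factor I motif, occur 2 times in Kcnj10, 0 times in Aldh1l1 and once in Aldoc, with a share of 46.7% of all promoters. One of the Kcnj10 occurrences overlaps a CCAAT box read on the opposite strand. The SOX core ACAAAG occurs once in Kcnj10 and 0 times in Aldh1l1 and Aldoc (18.7% of all promoters hold it). None of the 3 windows holds TATAAA, which 13.6% of promoters do, or the STAT site TTCNNNGAA, which 8.3% do. Their GC content was 63.7% for Kcnj10, 60.0% for Aldh1l1 and 56.3% for Aldoc, above the median of 52.7%. RefSeq lists a further Aldoc start at base 78324198, whose window holds 2 of the STAT site, at -124 and -83 from that start, and 0 of each of the other 5 motifs. A match describes these letters and is not evidence of binding.

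The protein-coding genes next to the 4 had no value. These were Spag5 and Pigs beside Aldoc, Klf15 and Slc41a3 beside Aldh1l1, Trp53 and Shbg beside Atp1b2, and Kcnj9 and Pigm beside Kcnj10. They lay 511 to 11892 bases from the GENCODE spans of the 4 genes. Pigs starts 634 bases past the end of Aldoc. No transcript of another gene was near-identical to any of the 4 (at least 98% identity over at least 200 bases and 50% of either transcript).

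Other astrocyte markers with a value went the same way. Of 26 further markers, 6 were lower, 0 were higher and 1 of the 6 fell. The authors' deposited table gives the 6 a median log2 fold change of -0.28. In the background, 8.68% of the 12938 genes were lower, 7.14% higher and 1.97% fell. Nothing is read from the count of 1 that fell. Hepacam, an adhesion protein of astrocyte junctions and end feet, was the one that fell. It had 1050, 1034, 926 and 960 normalised counts in CaKO replicates 1 to 4, a mean of 992 ± 59.5 (SD, n = 4). It stood at -0.37 on the log2 scale per the authors' deposited table (adjusted p = 0.00290), and the call was kept without each CaKO library in turn. The authors' deposited table lists as lower, without passing the adjusted threshold, Slc7a10, an amino acid transporter (-0.32, adjusted p = 0.240), the neurotensin receptor Ntsr2 (-0.31, adjusted p = 0.116), and the intermediate filament gene Gfap (-0.25, adjusted p = 0.263). The acyl-CoA synthetase Acsbg1 (-0.24, adjusted p = 0.0981) and glutamine synthetase Glul (-0.17, adjusted p = 0.222) complete the set, per the authors' deposited table. Without CaKO replicate 3, 3 of the 6 kept a p below 0.05. The other 20 markers have no value, among them the water channel Aqp4, the glutamate transporters Slc1a2 and Slc1a3, the connexins Gja1 and Gjb6, S100b, and Sox9.

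Of 24 other genes of glycolysis, glucose uptake and lactate handling, 2 were lower, 2 were higher and 20 had no value, including the aldolase Aldoa. These counts are near the shares over all 12938 genes (8.68% lower, 7.14% higher), so nothing is read from them about the pathway. Eno2 was lowest in CaKO replicate 1, as Aldoc was. Per the authors' deposited table it rose by 0.36 (log2, adjusted p = 0.00769), in the opposite direction to Aldoc. The liver-type phosphofructokinase Pfkl was higher at 0.36 per the authors' deposited table (adjusted p = 0.165). Hexokinase 1 (Hk1), which traps glucose in the cell, was lower at -0.36 (adjusted p = 0.125), and the glucose transporter Slc2a1 of endothelium and astrocytes at -0.30 (adjusted p = 0.213), per the authors' deposited table. Of 12 glycogen genes, 2 were lower per the authors' deposited table and 0 passed: Pygm, the glycogen phosphorylase that astrocytes also make (-0.44, adjusted p = 0.0553), and Phka1, a subunit of its activating kinase (-0.30, adjusted p = 0.313).

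The folate enzymes gave almost no values beside Aldh1l1. Of 25 other genes of folate, serine and glycine metabolism, 24 had no value, including the mitochondrial paralogue Aldh1l2. The serine-synthesis enzyme Psph was higher at 0.30 per the authors' deposited table (adjusted p = 0.216). Among 16 other aldehyde dehydrogenases, 2 were lower and 1 fell, beside 8.68% lower and 1.97% that fell over all 12938 genes. Nothing is read from such small counts about the family. Aldh1a1, which makes retinoic acid from retinaldehyde, had 391, 634, 563 and 410 normalised counts in CaKO replicates 1 to 4, so its libraries formed a low and a high pair. It fell by 0.77 per the authors' deposited table (log2, adjusted p = 0.00775), and its row was matched to the gene by overlap rather than exactly. The mitochondrial Aldh2, which clears acetaldehyde, was lower at -0.39 per the authors' deposited table (adjusted p = 0.171).

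The partners of the ion-buffering genes named here mostly had no value. The other beta subunits of the sodium pump, Atp1b1 and Atp1b3, have none. Among 14 other inward rectifiers none has a value (0 of 14 lower or higher), including Kcnj16, whose product forms channels with Kir4.1. Kcnk1, a tandem-pore potassium channel, was 1 of 3 glial channels of that family with a value, lower at -0.16 per the authors' deposited table (adjusted p = 0.256).

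Of 19 genes of glutamate, water and junctional coupling in astrocytes, 3 were lower, 1 was higher and 15 had no value, beside 8.68% lower and 7.14% higher over all genes. One of the 3 fell (Hepacam) and the 1 that was higher rose, beside 1.97% that fell and 1.27% that rose over all genes, and nothing is read from such small counts about the group. Gjb2, a connexin of astrocytes and meningeal cells, rose by 0.67 per the authors' deposited table (log2, adjusted p = 0.0307) at a low level of 134 ± 9.10 normalised counts in CaKO (SD, n = 4). Its call ended without replicate 1 (0.66) or 4 (0.63). Its deposited p (0.000700) was above that of Aldoc, so the wider standard error has a part in this too. The glutamine transporter Slc38a3 was lower at -0.35 per the authors' deposited table (adjusted p = 0.0862). Of 15 genes of reactive astrocytes, 2 were lower, 1 was higher and 0 passed the adjusted threshold. Per the authors' deposited table these were Gfap, the cytokine receptor gene Osmr (-0.41, adjusted p = 0.211), and the protease inhibitor Serpina3n (0.36, adjusted p = 0.288).

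**Figure D4:**
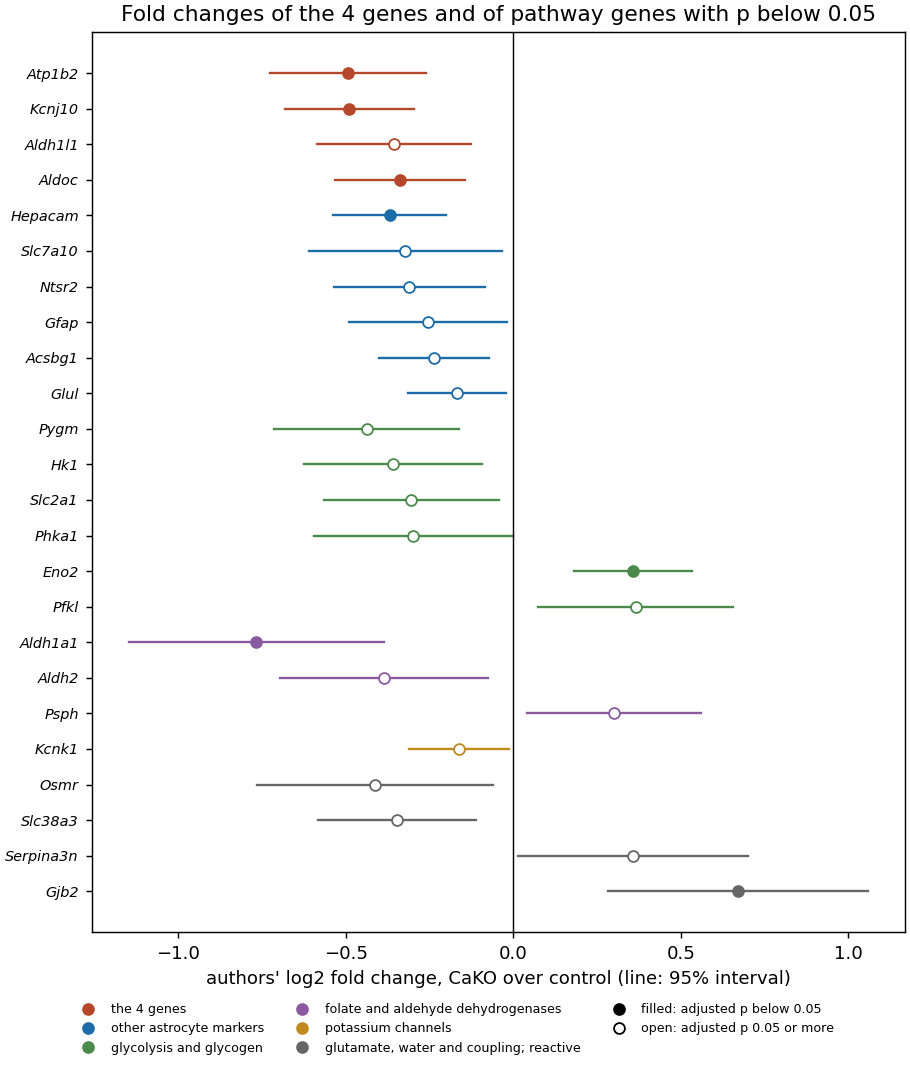
The authors' log2 fold change of CaKO over control (points) with the 95% interval implied by the deposited p (lines) for the 4 genes and for genes of the astrocyte and pathway lists reported here, each shown once and filled where the adjusted p is below 0.05. Every astrocyte marker above the glycolysis group is left of 0, while Eno2 (0.36), Pfkl (0.36), Psph (0.30), Serpina3n (0.36) and Gjb2 (0.67) are right of it.

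Markers of other cells in the tissue are given beside the shares over all 12938 genes, of which 8.68% were lower, 7.14% higher, 1.97% fell and 1.27% rose. Of 14 oligodendrocyte markers other than Kcnj10, 11 were lower and 4 of these fell, and the median of the 11 was -0.48 (log2) per the authors' deposited table. Their summed level was 46039, 38398, 38542 and 37528 normalised counts in CaKO replicates 1 to 4, highest in replicate 1, whereas Kcnj10 was lowest in replicate 2. The call of Mag, a myelin adhesion protein, ended without replicate 1 (-0.31) or 2 (-0.28). Of 10 precursor markers 3 fell, at a median of -0.59 per the authors' deposited table. One of these calls, that of the transcription factor Olig1, ended without replicate 2 (-0.43) or 3 (-0.37). The deposited p of Olig1 (0.000690) was likewise above that of Aldoc. The part of oligodendrocytes in the Kcnj10 value was not tested. Among 12 meningeal markers 3 rose (Gjb2 among them) and 1 fell. Besides that of Gjb2, the calls of Ptgds (without replicate 2, 0.38) and Fn1 (without replicate 2, -0.45, or 3, -0.40) ended when a library was left out. Of 5 blood markers 3 were lower (1 fell), of 11 endothelial markers 2 were lower (1 fell), and of 11 microglial markers 1 was lower and 1 higher, with 0 calls. None of 9 mural or 7 ependymal and choroid markers had a value (0 of each).

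**Figure D5:**
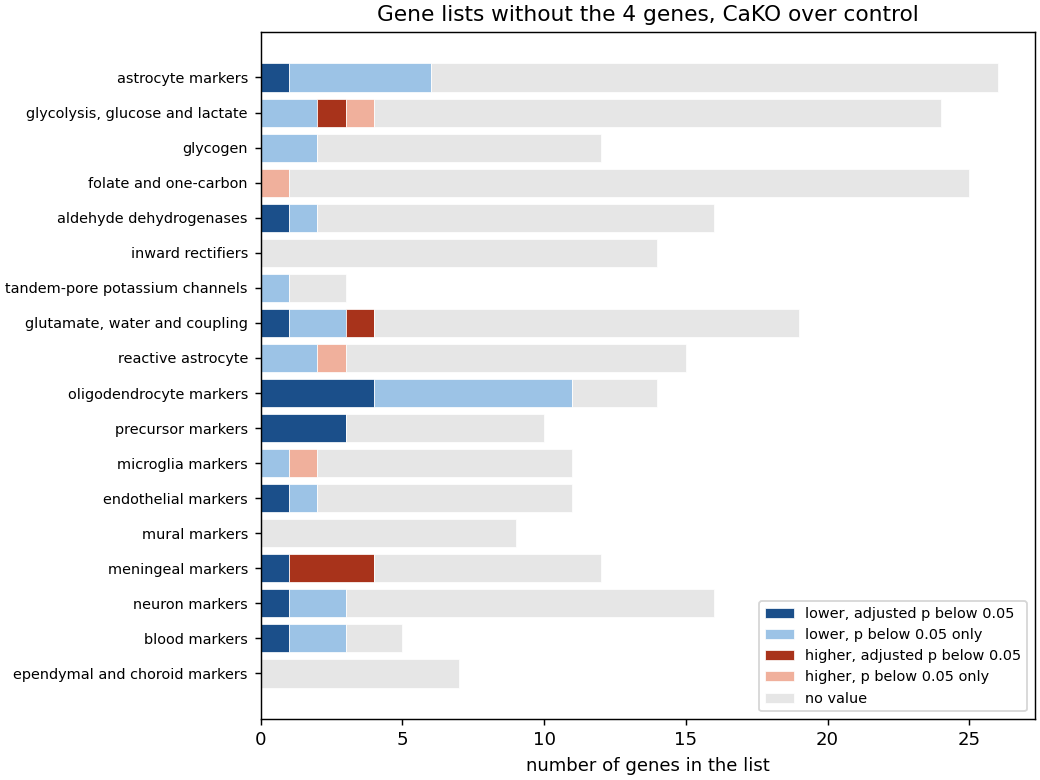
Number of genes (horizontal) in each list shown, without the 4 genes, split by direction in CaKO over control and by threshold. Genes of no value are in grey, and the sodium pump list is not shown. Astrocyte markers show 6 lower of 26 and oligodendrocyte markers 11 lower of 14, while inward rectifiers show 0 of 14 with a value. Over all 12938 genes, 8.68% were lower and 7.14% higher.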

How the data were processed

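Per the labels' protocols, poly-A RNA of the mPFC of 4 CaKO and 4 control mice was sequenced as paired-end reads. TopHat2 2.0.12 aligned them to GRCm38 and HTSeq 0.6.1 counted them per gene, per the submitters' processing notes, which also name DESeq2 1.30.1. No source used here says whether reads were assigned by strand.

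The library values are a signal, read counts that the authors divided by 1 factor per library: in each, 100% of values are whole multiples of 1 step (0.9941 to 1.0420) within a tolerance of 0.01. The log2 fold changes, p-values and adjusted p-values were deposited by the authors. The fold changes run CaKO over control, as shown by 18 genes with 0 reads in each CaKO library, all with a negative value. The adjusted p-values fit Benjamini-Hochberg adjustment over 12938 genes (largest relative difference 0.005). A further 325 rows with an adjusted p of 1 were left out. Because the adjustment fits, the 2047 remaining genes are all those in it with p below 0.05.

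Of 2372 rows, 2266 matched GENCODE M21 exactly, 89 by at least 80% mutual overlap, and 17 did not match. Standard errors and 95% intervals were taken from the fold change and p as a Wald test. Calls use the authors' adjusted p (threshold 0.05). No count test was run, since control values were not used. Depth is known only as reads over the listed genes, so counting error is that of these reads.

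The 4 genes and all lists were chosen with earlier results of these data known. The genes named were the 4, every listed gene of the pathway lists, the 3 genes closest in library pattern to each (mean of at least 500 normalised counts), the adjacent protein-coding genes, and markers that a result turns on. A few genes that this rule names are not reported here. Alternatives were leaving out each CaKO library, other scalings of the CaKO libraries, other thresholds, and exact matches only. Python 3.11.15, pandas 2.3.3, scipy 1.17.1 and BLAST 2.17.0 were used, and the scripts were tested on simulated data.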

Additional observations from a re-analysis of the deposited data

Results flagged for a closer look

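Among 24 genes of the astrocyte and pathway lists, 1 had a CaKO library far from the other 3, judged by the gap to the nearest library as a share of the whole range and set against Dixon's 95% critical value for 4 samples. Chance passes this limit in about 5% of groups. Kcnj10 had a share of 0.856, because replicate 2 (1935 normalised counts) lay below replicates 1, 3 and 4 (2270, 2300 and 2327), and its log2 fold change without that library was -0.43.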

How the results depend on the processing

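With each CaKO library left out in turn, the log2 fold change ranged from -0.39 to -0.28 for Aldoc, -0.42 to -0.30 for Aldh1l1, -0.58 to -0.38 for Atp1b2 and -0.52 to -0.43 for Kcnj10, all negative. The number of astrocyte markers that fell, out of 30 with the 4 genes included, was 4 with all libraries and ranged from 2 to 4, and the number that were lower from 7 to 10. The 4 genes were chosen by this contrast, so nothing is read from the counts out of 30. Of the 26 markers other than the 4 genes, 3 to 6 were lower and 1 fell each time. At an adjusted p below 0.1, 2 of the 26 fell, and 6 of the 30. At 0.01 the counts were 1 and 3. The shares over all genes at 0.1 and 0.01 were not computed, so nothing is read from the counts at these thresholds. The counts restricted to the 26 were added after the data were seen. Rescaling the CaKO libraries to equal totals or by median ratios left each of the 4 genes on its side of the threshold, with Atp1b2 at -0.50 and -0.49 and Aldoc at -0.34 under both. Without division by length, Aldoc stood at 1.57 times Atp1b2 (1.96 per kilobase), Atp1b2 at 1.78 times Kcnj10 (2.35) and Kcnj10 at 3.82 times Aldh1l1 (3.19). Hk1, Pygm and Slc38a3, not called with all libraries, came within the p of the called genes without 1 library (Hk1 at -0.47 without replicate 4, Pygm at -0.56 without replicate 2, Slc38a3 at -0.41 without replicate 2 or 4). No paired analysis was possible because no values of single control libraries were used. Scaling between CaKO and control libraries and the spread of the controls could not be varied for the same reason.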
